A study of Homo sapiens with 12 samples.

Results

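Zinc finger genes with a symbol of the ZNF series (the letters ZNF, a number and at most 1 further letter) made up 56 of the 6777 genes tested, or 0.826%. Members were taken by symbol, but the series was picked for study with earlier results of these data known. All 56 IDs matched a gene name table. RefSeq lists 509 protein-coding genes with such symbols, so 11.0% of the series was represented here. The tables hold only genes above 1 FPKM in every library, and the other ZNF genes were not analysed here.

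The study measured MDA-MB-231, a line of human breast cancer cells without hormone receptors or HER2 amplification, by RNA-seq and by ribosome profiling, which sequences the mRNA fragments that ribosomes protect. The cells received 10 nM AZD0095, an inhibitor of the lactate exporter MCT4, for 4 h, and the control cells received DMSO, its solvent, for the same time. Each assay had 3 AZD0095 libraries and 3 DMSO libraries, 12 in all. The series asks how lactate that stays in the cell affects transcription and translation. The line is 1 transformed cell line, both groups share it, and no label states that the replicates came from different cultures. The p-values below therefore describe how these libraries spread, and that spread may be technical.

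Most ZNF proteins carry C2H2 zinc fingers, short loops that hold a zinc ion and read DNA a few bases at a time. Many of them also carry a KRAB domain, which recruits the corepressor TRIM28 and with it the enzymes and readers of silent chromatin, often at transposable elements. The KRAB genes lie largely in clusters on chromosome 19, and their transcripts are known to be scarce and short-lived in many cell types. The symbol series also holds proteins of other kinds, so the name transcription factor covers only some members. ZNF185 is a LIM domain protein of the actin cytoskeleton, ZNF598 a ubiquitin ligase that marks collided ribosomes, ZNF622 and ZNF593 factors of large ribosomal subunit maturation, and ZNF207 a spindle and kinetochore protein. RNA half-lives were not measured in this study.

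Markers of the line were mixed. In DMSO cells the mesenchymal marker VIM stood at 2522 ± 25.9 FPKM and CD44 at 787 ± 43.1 FPKM (SD, n = 3). The epithelial keratins KRT8, KRT18 and KRT19 were also listed, at 232, 217 and 129 FPKM, with EPCAM at 10.1 and ERBB2 at 16.8 FPKM, whereas the hormone receptor genes ESR1 and PGR were not. Footprint libraries were shallow, with 107087 to 501350 implied reads each, and how deeply the RNA libraries were sequenced is unknown. The replicate 1 RNA libraries of both treatments stood apart from replicates 2 and 3, so counts of RNA calls among the ZNF genes and the lists are also given for replicates 2 and 3 alone.

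Of the 56 members, 14 lie on chromosome 19, which is 25.0% of them, against 6.2% of the other genes tested. RefSeq places 246 of its 509 ZNF genes on that chromosome, and 5.69% of these were listed, against 16% of the 263 elsewhere. Some of the listed genes are neighbours on GRCh38.p14, the assembly of hg38. ZNF317 (chr19:9140397-9163413), ZNF121 (chr19:9560329-9584504) and ZNF561 (chr19:9607329-9621232) lie close together on the short arm. ZNF529 (chr19:36543613-36605543), ZNF567 (chr19:36666934-36727506) and ZNF850 (chr19:36743480-36772807) lie close together on the long arm. Such genes descend from tandem duplications, and how the authors divided reads between similar genes is not stated, which leaves the values of single members uncertain to that extent.

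ZNF transcripts were scarce. Their median RNA level was 10.8, 9.13 and 9.44 FPKM in the AZD0095 libraries of replicates 1, 2 and 3, and 10.6, 10.2 and 9.58 FPKM in the DMSO libraries. The other genes had medians of 24.2, 23.2 and 23.2 FPKM with AZD0095 and of 23.9, 23.3 and 23.6 FPKM with DMSO, more than any ZNF median. All 56 members together made up 0.193%, 0.173% and 0.174% of the summed RNA FPKM with AZD0095 and 0.199%, 0.184% and 0.185% with DMSO. Every same-numbered AZD0095 library was below its DMSO counterpart, but AZD0095 replicate 1 was above DMSO replicates 2 and 3, so the groups overlapped. In a bulk library, fewer cells with a transcript and less of it per cell cannot be told apart.

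**Figure D1:**
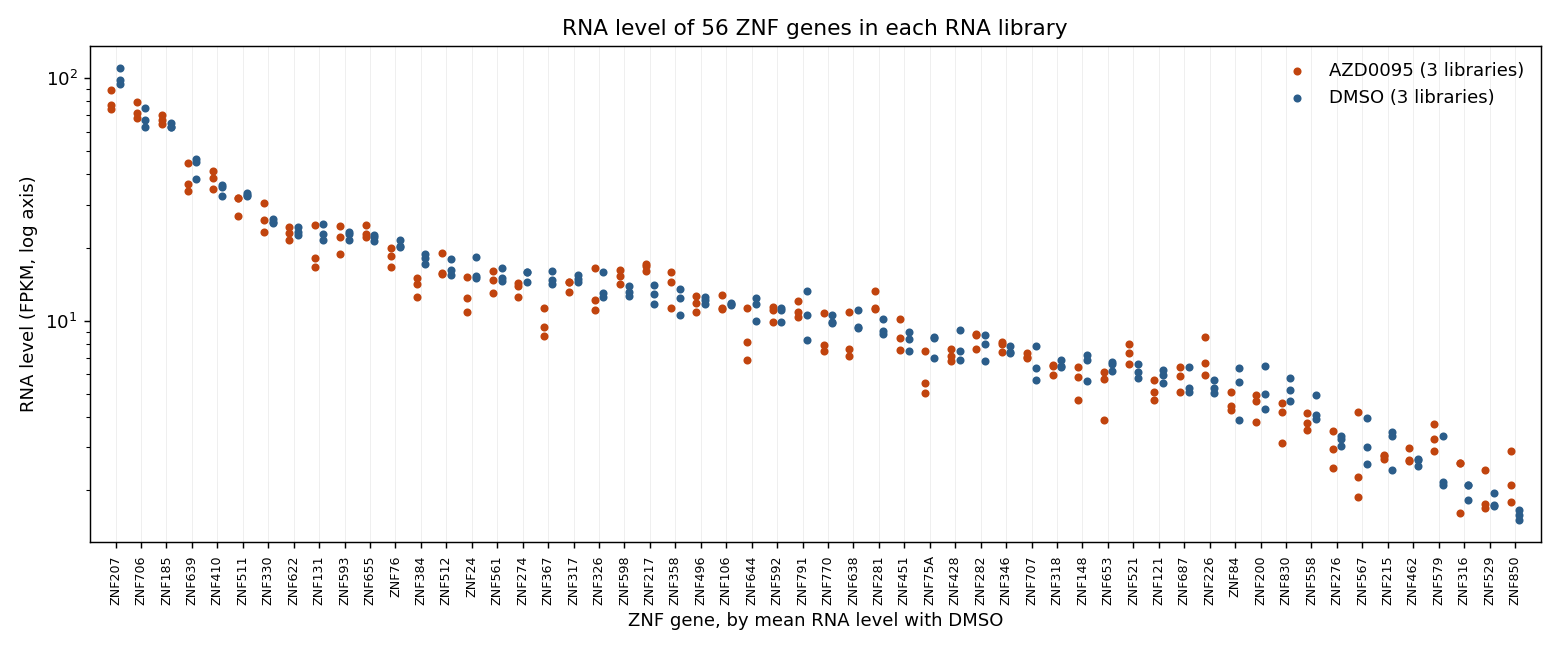
RNA level of the 56 ZNF genes on a log axis of FPKM, 1 point per library (AZD0095 left and orange, DMSO right and blue), with genes in order of their mean level with DMSO. Levels ran from 101 FPKM for ZNF207 to 1.58 FPKM for ZNF850 with DMSO, and the groups of most genes overlapped.

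By class of mean RNA level over the 6 RNA libraries, 20 members lay between 8 and 16 FPKM and 15 between 4 and 8 FPKM. These classes held 35.7% and 26.8% of the members, against 21.3% and 10.3% of the other genes. Above 64 FPKM were 5.36% of the members and 19.4% of the other genes. The highest levels belonged to proteins outside the KRAB class. ZNF207 averaged 80.4 ± 7.50 FPKM with AZD0095 and 101 ± 7.76 FPKM with DMSO. ZNF706, a short zinc finger protein, averaged 73.3 ± 5.83 FPKM with AZD0095 and 68.3 ± 6.02 FPKM with DMSO. ZNF185 had 67.3 ± 2.91 and 63.5 ± 1.29 FPKM in AZD0095 and DMSO cells. ZNF639 had 38.4 ± 5.35 and 43.1 ± 4.31 FPKM in those cells (SD, n = 3 each). With DMSO, ZNF706 and ZNF185 did not differ beyond their spread, whereas ZNF207 above them and ZNF639 below them lay apart. At the bottom were ZNF579, ZNF316, ZNF529 and ZNF850, with means of 3.30, 2.26, 1.95 and 2.26 FPKM with AZD0095 and of 2.54, 2.01, 1.80 and 1.58 FPKM with DMSO. The DMSO libraries of ZNF316, ZNF529 and ZNF850 were close, and those of ZNF316 and ZNF529 overlapped.

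The RNA of 4 ZNF genes was called different between AZD0095 and DMSO. ZNF217, an oncogene product that works with the CoREST and CtBP corepressors, rose, and ZNF367, ZNF384 and ZNF207 fell, each by less than 0.6 on the log2 scale. The share of members called at a limma adjusted p under 0.05 (Benjamini-Hochberg over all genes) was 7.14%, beside 8.04% of all genes. In the upward direction it was 1 member or 1.79%, beside 5.03% of all genes, and in the downward direction 3 members or 5.36%, beside 3.01%. At an unadjusted p under 0.05 stood 11 members or 19.6%, beside 24.2% of all genes. The members' share of calls was thus near that of genes in general in this fit. It was lower with a term for replicate 1 in the fit, at 16.1% beside 24.5% of all genes. With a term for each replicate number it was 14.3%, beside 23.9%.

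**Figure D2:**
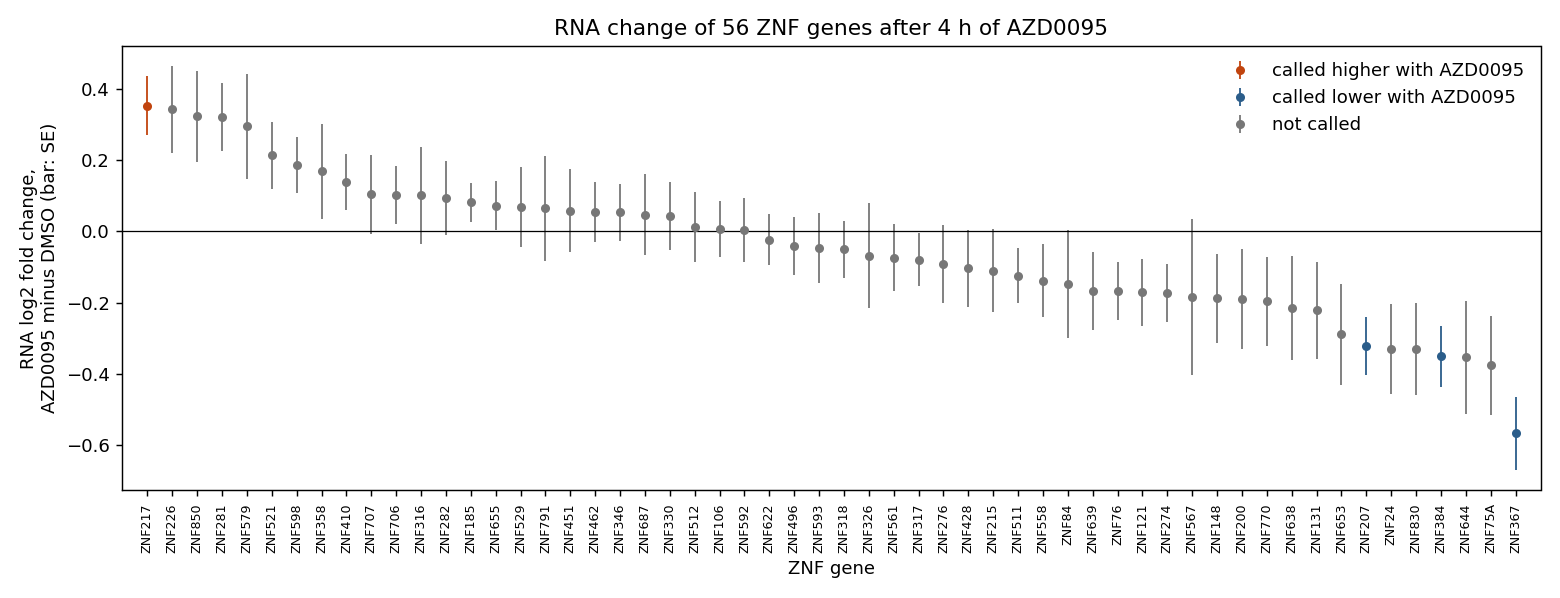
RNA log2 fold change of the 56 ZNF genes, AZD0095 minus DMSO, on the log2(FPKM + 1) scale, sorted, with bars for the standard error. ZNF217 at 0.35 was called higher, and ZNF367 at -0.57, ZNF384 at -0.35 and ZNF207 at -0.32 were called lower, and the grey genes were not called.

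ZNF367, a C2H2 factor whose transcript is commonly listed among cell-cycle genes, fell most of the 56. Its RNA stood at 11.3, 9.44 and 8.65 FPKM in the AZD0095 libraries and at 15.9, 14.2 and 14.6 FPKM in the DMSO libraries. Every AZD0095 library lay below every DMSO library. The means were 9.79 ± 1.34 FPKM with AZD0095 and 14.9 ± 0.918 FPKM with DMSO (SD, n = 3 each), and the fold change was -0.57 on the log2 scale (SE 0.10, limma adjusted p = 0.016). Leaving out any single library other than AZD0095 replicate 1 ended the call, with adjusted p from 0.0003 to 0.081 over 14 alternatives, while the fold change stayed between -0.66 and -0.49.

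ZNF384, a nuclear matrix factor that binds A-rich DNA, stood at 12.5, 14.2 and 15.0 FPKM with AZD0095 and at 17.1, 18.8 and 18.2 FPKM with DMSO. The groups did not overlap. The log2 fold change was -0.35 (SE 0.09, limma adjusted p = 0.044), and it was not called with median centring (adjusted p = 0.060) or quantile normalization (0.064) or without any 1 library other than AZD0095 replicate 1. Over 14 alternatives its adjusted p ran from 0.0028 to 0.18.

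The 200 bases upstream of these genes are shown because both genes fell and both windows hold matches to motifs of promoter-binding factors, chosen with the results known. Sequences and positions come from RefSeq promoters of GRCh38.p14, read 5′ to 3′ on the gene's own strand. For ZNF367 (chr9:96418371-96418570, minus strand) capitals mark matches to the E2F letters TTCCCGC or to the CCAAT box. For ZNF384 (chr12:6689573-6689772, minus strand) capitals mark matches to the ETS letters CCGGAAG. Either strand was read in each case.
ZNF367: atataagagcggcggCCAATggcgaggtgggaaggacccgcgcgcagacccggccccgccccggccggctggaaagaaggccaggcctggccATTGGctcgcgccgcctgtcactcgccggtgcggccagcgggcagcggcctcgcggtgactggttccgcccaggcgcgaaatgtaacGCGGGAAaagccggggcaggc
ZNF384: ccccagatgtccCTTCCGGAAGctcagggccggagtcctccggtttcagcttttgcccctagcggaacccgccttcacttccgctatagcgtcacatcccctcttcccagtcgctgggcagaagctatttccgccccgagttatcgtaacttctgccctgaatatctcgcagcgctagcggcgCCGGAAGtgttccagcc

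The ZNF367 window held 1 E2F match that begins 21 bases before the start, and 2 CCAAT boxes that begin 185 and 108 bases before it. The ZNF384 window held 3 ETS matches, 188, 185 and 17 bases before the start, the first pair overlapping as opposite strands of a palindrome. The windows used for ZNF207, which fell, and for ZNF217, which rose, held none of these letters. The ZNF217 window lay before a start inside the gene, and the bases before the annotated end of ZNF217 were not read. The lack of matches says nothing about factors that bind elsewhere. Such a window was found for 51 members, before the annotated end of the gene for 42 of them and before a start inside the gene for 9. The E2F letters were in 6 of them (11.8%), beside 8.10% of the windows of other listed genes and 4.65% of all 27305 promoters. The ETS letters were in 14 (27.5%, beside 17.5% and 8.04%) and the CCAAT box in 11 (21.6%, beside 32.1% and 28.9%). RNA fold changes ran from -0.57 to 0.06 for members with the E2F letters (4 of 6 negative). They ran from -0.38 to 0.34 with the ETS letters (10 of 14 negative). With the CCAAT box they ran from -0.57 to 0.34 (6 of 11 negative), beside 31 negative among all 56 members. A link between letters and RNA change was not tested. The cyclic AMP response element TGACGTCA was in 6 (11.8%, beside 3.34% and 1.67%), namely ZNF121, ZNF200, ZNF330, ZNF511, ZNF561 and ZNF593, whose RNA fold changes ran from -0.19 to 0.04. These 6 were not called, and ZNF121, ZNF200, ZNF511 and ZNF561 were picked for mention with their values known. The E-box CACGTG was in 3 (5.88%, beside 8.44% and 5.59%), and the amino acid response letters TGATGNAA were in 0, beside 0.803% and 2.59%. A match is a run of letters and was not tested as a binding site.

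ZNF207 was the most abundant member and fell in the same range. It stood at 88.9, 77.5 and 74.8 FPKM with AZD0095 and at 109, 98.4 and 94.3 FPKM with DMSO. The highest AZD0095 library was below the lowest DMSO library. The log2 fold change was -0.32 (SE 0.08, limma adjusted p = 0.048), and the call was lost without a variance trend (adjusted p = 0.070) and without any 1 library other than AZD0095 replicate 1, within a range of 0.0004 to 0.17 over 14 alternatives.

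ZNF217 stood at 17.1, 16.8 and 16 FPKM with AZD0095 and at 14.0, 12.9 and 11.7 FPKM with DMSO, and the groups did not overlap. Its mean was 16.7 ± 0.579 FPKM with AZD0095 and 12.9 ± 1.14 FPKM with DMSO (SD, n = 3 each), and its fold change was 0.35 on the log2 scale (SE 0.08, limma adjusted p = 0.039). It was called in 10 of 14 alternatives, with adjusted p from 0.0040 to 0.14. The call ended when replicate 2 or 3 of either treatment was left out.

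The AZD0095 and DMSO libraries did not overlap for 14 members, 25.0% of them, beside 29.2% of all genes. Higher with AZD0095 were 6 members, beside 17.7% of all genes, and lower were 8, beside 11.5%. Apart from ZNF217, the higher ones were ZNF281, ZNF226, ZNF850, ZNF598 and ZNF521. ZNF281, a factor of GC-rich promoters linked to stem-like and mesenchymal states, stood at 13.3, 11.3 and 11.2 FPKM with AZD0095 and at 10.1, 9.02 and 8.81 FPKM with DMSO (log2 fold change 0.32, limma adjusted p = 0.081). ZNF226 stood at 8.53, 6.70 and 5.99 FPKM with AZD0095 and at 5.03, 5.26 and 5.67 FPKM with DMSO (0.34, adjusted p = 0.13). Its AZD0095 libraries were thus more spread than its DMSO libraries, and replicate 3 of the groups nearly met. ZNF521, a many-fingered factor of early blood cells, stood at 7.99, 6.62 and 7.37 FPKM with AZD0095 and at 6.62, 6.11 and 5.79 FPKM with DMSO (0.21, adjusted p = 0.21).

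The lower ones, apart from the 3 that were called, were ZNF830, ZNF653, ZNF274, ZNF76 and ZNF511, of which ZNF274 and ZNF511 were named after their values were seen. ZNF830, a spliceosome-associated protein, stood at 4.59, 3.14 and 4.19 FPKM with AZD0095 and at 5.19, 5.81 and 4.66 FPKM with DMSO (-0.33, limma adjusted p = 0.17). ZNF653 stood at 3.88, 5.75 and 6.14 FPKM with AZD0095 and at 6.78, 6.65 and 6.2 FPKM with DMSO (-0.29, adjusted p = 0.26), with AZD0095 replicate 1 far below the others. ZNF274, a KRAB protein known to bind the ends of other ZNF genes with the methyltransferase SETDB1, had 13.9, 14.2 and 12.5 FPKM with AZD0095 and 15.8, 14.4 and 15.9 FPKM with DMSO (-0.17, adjusted p = 0.24). None of these passed the threshold.

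Over the whole set, the RNA fold changes centred just below 0. The fold change was negative for 31 of 56 members, or 55.4%, beside 47.7% of all genes. The median fold change was -0.05, beside 0.01 for the other genes, and relative to other genes in the same doubling class of RNA level the members' median was -0.06. Set against the mean of the DMSO libraries and other genes of like RNA level, the members' median was -0.06, -0.08 and -0.04 in AZD0095 replicates 1, 2 and 3. These 3 values share the same DMSO mean and are not independent of each other, and no test was made on the set. The median standard deviation of a single member within a group was 0.13 with AZD0095 and 0.09 with DMSO. By level, the members' median was 0.20 at 1 to 2 FPKM (2 members), beside -0.04 for other genes, and -0.02 at 2 to 4 FPKM (6 members), beside 0.04. It was -0.14 at 4 to 8 FPKM (15 members), beside 0.02, and -0.05 at 8 to 16 FPKM (20 members), beside 0.00. It was -0.04 at 16 to 32 FPKM (8 members), beside 0.00, and -0.01 at 32 to 64 FPKM (2 members), beside 0.01. Above 64 FPKM it was 0.08 (3 members), beside 0.01, so the thinly filled lowest and highest classes lay on the other side.

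The replicates did not weigh alike. In replicates 2 and 3 alone, 10 members were called lower and 2 higher. That is 17.9% of members lower and 3.57% higher, beside 10.9% and 9.68% of all genes. The fold change was negative for 33 members (58.9%), beside 50.1% of all genes. In either direction the members' share of calls was 21.4%, beside 20.6% of all genes. The 2 higher were ZNF217 (0.39, limma adjusted p = 0.0053) and ZNF281 (0.30, adjusted p = 0.027). The lower ones were ZNF367, ZNF384, ZNF207, ZNF24, ZNF644, ZNF638, ZNF830, ZNF75A, ZNF131 and ZNF770, the last 3 named after their values were seen. ZNF644, a partner of the histone methyltransferases G9a and GLP, was at -0.47 (adjusted p = 0.0071). ZNF638, an RNA- and DNA-binding nuclear protein tied to silencing of foreign DNA, was at -0.31 (adjusted p = 0.032).

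**Figure D3:**
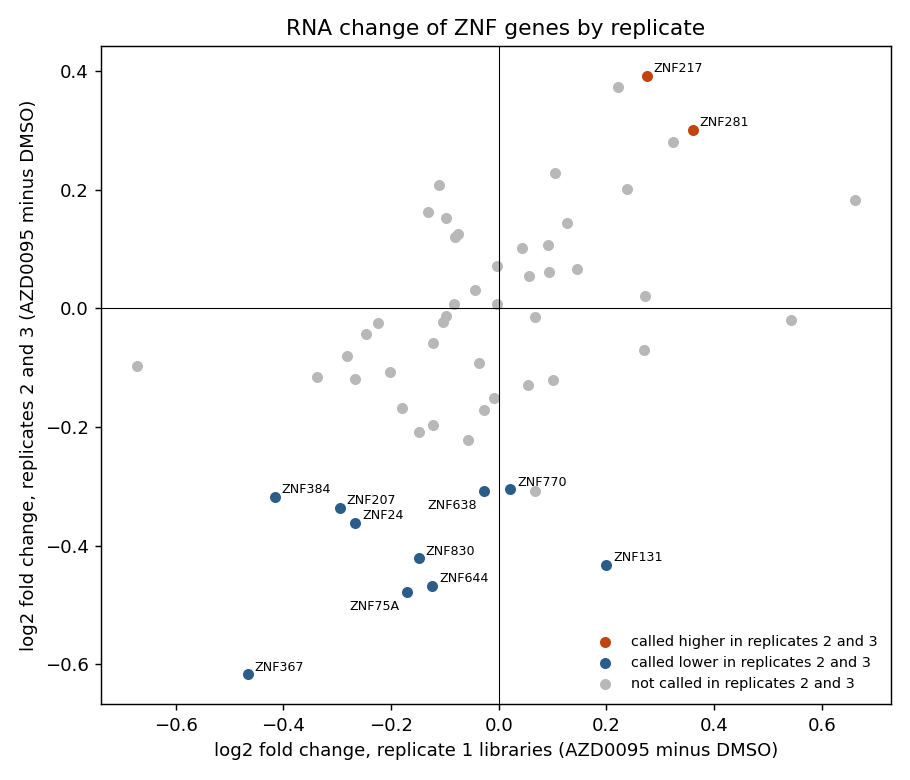
RNA log2 fold change (AZD0095 minus DMSO) of each ZNF gene in the replicate 1 libraries (horizontal axis) and in replicates 2 and 3 (vertical axis). Points are genes, and names are given for the 12 called in replicates 2 and 3, of which ZNF131 and ZNF770 lie right of 0 in replicate 1 although lower in replicates 2 and 3.

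In the replicate 1 pair, 10 of these 12 had the same sign, or 83.3%, beside 91.0% of the 1383 other genes so called. ZNF131, a BTB domain factor, was the clearest exception, at 0.20 in replicate 1 and -0.43 in replicates 2 and 3. Its RNA stood at 24.8, 18.1 and 16.6 FPKM with AZD0095 and at 21.4, 24.9 and 22.7 FPKM with DMSO. AZD0095 replicate 1 thus lay with the DMSO libraries and the other two below them. ZNF770 was at 0.02 and -0.31. ZNF644 showed a like shape within its AZD0095 libraries, with 11.3, 6.89 and 8.19 FPKM, against 12.4, 11.7 and 9.96 FPKM with DMSO. With replicate 1 set against replicates 2 and 3 as a term of the fit, 3 members (5.36%) were called higher, beside 12.9% of all genes. Called lower were 6 members (10.7%), beside 11.6%.

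Members stood higher in replicate 1 than in replicates 2 and 3 in both treatments, by a median of 0.09 with AZD0095 and 0.07 with DMSO on the log2 scale, beside 0.03 and 0.02 for other genes. In each treatment 33 of 56 members were higher in replicate 1 (58.9%), beside 56.9% of other genes with AZD0095 and 55.6% with DMSO. The part of replicate 1 in the members' changes was not tested.

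The counts by role that follow are of few genes, beside 5.03% of all genes called higher and 3.01% called lower, or 9.68% and 10.9% in replicates 2 and 3 alone. The 11 members on the list for RNA or ribosome handling held 1 lower call, ZNF207, and 0 higher calls (3 lower and 0 higher in replicates 2 and 3). Their median fold change was -0.02. ZNF207, named above as a spindle and kinetochore protein, was put on this list with results known. ZNF598 had 14.2, 16.1 and 15.2 FPKM with AZD0095 and 13.2, 12.6 and 13.8 FPKM with DMSO (0.19, limma adjusted p = 0.19), the groups not overlapping. ZNF622 (-0.02), ZNF593 (-0.05), ZNF106 (0.01), ZNF326 (-0.07), ZNF330 (0.04) and the double-stranded RNA-binding ZNF346 (0.05) were not called. Of 4 members that partner chromatin complexes, ZNF217 was called, while ZNF592 (0.00) and ZNF687 (0.05), which belong to a complex with the reader protein ZMYND8, and ZNF644 (-0.35) were not; replicates 2 and 3 gave 1 higher and 1 lower. Of 7 other factors with known roles, ZNF384 was called lower, and replicates 2 and 3 gave 1 higher and 2 lower. ZNF24, a SCAN domain repressor, was at -0.33 and not called (adjusted p = 0.16), as were ZNF148 at -0.19, ZNF76 at -0.17, ZNF639 at -0.17 and ZNF462 at 0.06. The 14 members on chromosome 19 held 0 calls, also in replicates 2 and 3, and a median of -0.08. The 42 elsewhere held 1 higher and 3 lower calls, or 9.52%, beside 8.04% of all genes, with a median of -0.04, and 2 higher and 10 lower in replicates 2 and 3. The members on chromosome 19 also had lower RNA, at a median of 6.23 FPKM with DMSO against 11.5 FPKM elsewhere. The difference between these positions was not tested.

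Genes listed as corepressors of KRAB zinc finger proteins were more abundant than the ZNF genes. Their median RNA level was 58.9 FPKM with AZD0095 and 58.7 FPKM with DMSO, against 9.28 and 10.4 FPKM for the ZNF genes. The list was drawn broadly and also holds DNMT1 and UHRF1, for which recruitment by KRAB proteins was not examined. Of 12 listed corepressor genes 2 fell and 0 rose, beside 3.01% and 5.03% of all genes. In replicates 2 and 3 alone 3 were called lower and 0 higher, beside 10.9% and 9.68% of all genes. TRIM28, the scaffold that KRAB domains bind, averaged 190 ± 2.30 FPKM with AZD0095 and 222 ± 3.82 FPKM with DMSO (SD, n = 3 each), a log2 fold change of -0.22 (limma adjusted p = 0.020). UHRF1, which reads methylated histone and hemimethylated DNA, averaged 24.3 ± 1.16 FPKM with AZD0095 and 32.9 ± 1.46 FPKM with DMSO (-0.42, adjusted p = 0.0097). UHRF1 lost its call without DMSO replicate 2 (0.065), and TRIM28 lost it without a variance trend or when replicate 2 or 3 of either treatment was left out (up to 0.11). The methyltransferase SETDB1 (-0.16), the heterochromatin proteins CBX1 (0.02), CBX3 (-0.23) and CBX5 (0.03), and the deacetylases HDAC1 (-0.02) and HDAC2 (-0.11) were not called.

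Among 17 listed genes of other zinc finger families (ZBTB, ZSCAN, ZKSCAN and ZFP symbols), 1 rose and 3 fell, beside 5.03% and 3.01% of all genes. The counts were the same in replicates 2 and 3 alone, there beside 9.68% and 10.9% of all genes. ZBTB10 rose (0.61, limma adjusted p = 0.013), and ZBTB38 (-0.46, adjusted p = 0.026), ZBTB1 (-0.56, adjusted p = 0.048) and ZFP36L2 (-0.57, adjusted p = 0.0037) fell. Under 14 alternatives ZFP36L2 was always called, ZBTB38 in 10 and ZBTB1 in 8, and ZBTB10 in 11 of 13, the losses coming without DMSO replicate 2 or AZD0095 replicate 2 for each, and for ZBTB38 and ZBTB1 also without DMSO replicate 1 or AZD0095 replicate 3. ZBTB1 was further lost without DMSO replicate 3 or without a variance trend. ZFP36L2 matched by symbol but is an RNA-binding protein that speeds mRNA decay. Among 20 immediate early and other short-lived regulators 7 rose and 2 fell, beside 5.03% and 3.01% of all genes. Replicates 2 and 3 alone gave the same counts, there beside 9.68% and 10.9% of all genes. The RNA of these regulators was higher than that of ZNF genes, at a median of 33.0 FPKM with AZD0095 and 28.3 FPKM with DMSO. IER3 (0.50, adjusted p = 0.0007) and JUNB (0.48, adjusted p = 0.0060) were among those that rose.

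Footprints of ZNF genes could be followed only coarsely. The members made up 0.182%, 0.165% and 0.129% of summed footprint FPKM with AZD0095 and 0.130%, 0.198% and 0.113% with DMSO, and the groups overlapped. The median standard deviation of a member between libraries was 0.68 with AZD0095 and 0.74 with DMSO on the log2 scale, beside 0.43 and 0.52 for other genes. Relative to other genes of like footprint level the excess was 0.13 with AZD0095 and 0.15 with DMSO. For 7 members the values could be read as whole numbers of reads, within 0.1 of a read. They had 1 to 25 reads per library, and 50.0% of their 42 values were 3 reads or fewer, beside 20.5% for 1043 other genes. These 7 are 12.5% of the members, and small counts are more readily read as whole numbers. The share need not hold for the rest. ZNF367 had 1, 2 and 7 reads with AZD0095 and 1, 3 and 1 with DMSO, so its RNA decrease could not be looked for in its footprints at this depth.

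By limma, 0 members passed in footprints, and 0 of 6777 genes did (0.00% in each direction). The fold change was negative for 30 members (53.6%), beside 46.9% of all genes. At an unadjusted p under 0.05 stood 4 members or 7.14%, beside 7.82% of all genes. They were ZNF644 and ZNF850, higher, and ZNF561 and ZNF215, lower, the last pair named after their values were seen. ZNF644 had footprints of 64.6, 42.1 and 30.4 FPKM with AZD0095 and of 2.01, 6.98 and 31.3 FPKM with DMSO (log2 fold change 2.28, SE 0.78, limma adjusted p = 0.63). Its DMSO replicate 3 lay within the AZD0095 range while the other DMSO libraries were far below. The reads of ZNF644 were not inferred. At the median length of genes with inferred reads, 3 reads made 23.2 and 26.8 FPKM in DMSO replicates 1 and 2. Its values in those libraries may thus rest on few reads. ZNF561 had 7.92, 5.14 and 11.2 FPKM with AZD0095 and 9.02, 128 and 40.0 FPKM with DMSO, so that 1 DMSO library carried much of its change (-2.10, SE 0.81, adjusted p = 0.63).

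Footprints of ZNF281 did not overlap between the groups, as its RNA did not. They stood at 19, 10.6 and 16.1 FPKM with AZD0095 and at 9.28, 7.16 and 1.99 FPKM with DMSO (1.33, SE 0.61, limma adjusted p = 0.64). The values rest on 7, 6 and 21 reads with AZD0095 and on 3, 2 and 1 reads with DMSO. In all, the footprint groups of 4 members (7.14%) did not overlap, beside 13.0% of all genes, with 3 higher beside 7.19% and 1 lower beside 5.77%.

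For the RNA genes called, footprints gave no clear direction. ZNF217 had 11.2, 7.24 and 20.3 FPKM with AZD0095 and 20.3, 5.88 and 17.3 FPKM with DMSO. ZNF384 had 3.72, 24.6 and 21.8 FPKM with AZD0095 and 12.5, 10.8 and 27.8 FPKM with DMSO. ZNF207 had 34.9, 69.3 and 55.6 FPKM with AZD0095 and 68.9, 106 and 50.5 FPKM with DMSO. The groups overlapped for each of them.

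The change of the footprint-to-RNA ratio with AZD0095, tested by limma as an assay-by-treatment term over the 12 libraries, passed for 0 members and for 0 of all genes (0.00%). The ratio change was negative for 27 members (48.2%), beside 47.6% of all genes. At an unadjusted p under 0.05 stood 5 members or 8.93%, beside 8.53% of all genes. The members were ZNF644 (2.63, SE 0.91), ZNF511 (0.86, SE 0.35), ZNF121 (1.12, SE 0.46), ZNF215 (-1.23, SE 0.53) and ZNF561 (-2.03, SE 0.94), with limma adjusted p from 0.47 to 0.58. All but ZNF644 were picked for mention with their values known.

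The ratio itself lay lower for ZNF genes than for other genes of like RNA level in all 6 footprint libraries. It was taken per footprint library as log2 of footprint FPKM over the mean RNA FPKM of the same treatment, and each member was set against the median of other genes in its doubling class of RNA level. The members' median difference was -0.31, -0.37 and -0.61 in the AZD0095 libraries and -0.50, -0.16 and -0.61 in the DMSO libraries. The mean was -0.43 ± 0.16 with AZD0095 and -0.42 ± 0.24 with DMSO (SD, n = 3 each), so the treatments differed by less than their spread. Within each treatment the gap was narrowest in the library with the fewest implied reads and widest in that with the most. Implied reads were 141122, 217366 and 501350 in AZD0095 replicates 1, 2 and 3. In the DMSO replicates they were 123859, 107087 and 192324. The part of depth in the gap was not tested. Between 30 and 40 of the 56 members were below their class median in each library. The 3 libraries of a treatment share the same mean RNA values and classes, so they are not independent of each other.

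**Figure D4:**
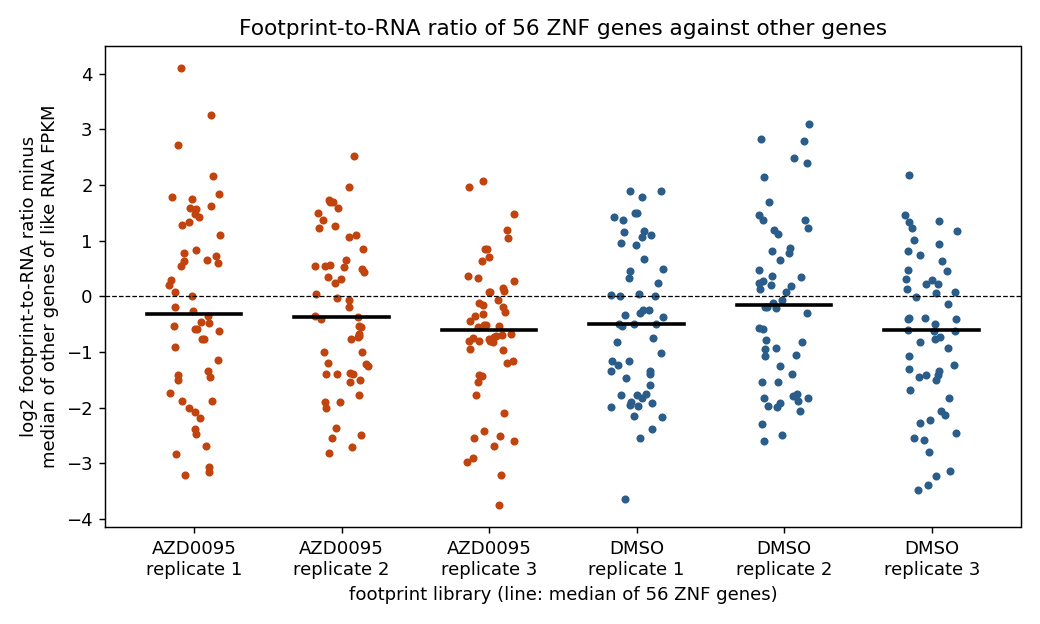
Footprint-to-RNA ratio of the 56 ZNF genes in each footprint library (AZD0095 left, DMSO right), on the log2 scale and minus the median of other genes of like RNA level, with 1 point per gene and a line at the members' median. The medians ran from -0.61 to -0.16, below the dashed line at 0 in every library.

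Below their class median in all 6 libraries were 17 members (30.4%), beside 22.0% of other genes. Above it in all 6 were 7 (12.5%), beside 22.3%, and the other 32 were mixed. The gap was uneven across RNA levels: at 8 to 16 FPKM the members were lower than other genes by 0.66 with AZD0095 (19 members, -0.66) and by 0.97 with DMSO (18 members, -0.97), but at 4 to 8 FPKM they were higher, by 0.14 with AZD0095 (13 members) and 0.34 with DMSO (15 members). At 2 to 4 FPKM the differences were -0.19 (9 members) and -0.34 (6 members) with AZD0095 and DMSO, and at 16 to 32 FPKM -0.30 and -0.24 (9 members each). The few members at 32 to 64 FPKM stood at -1.54 with AZD0095 (2 members) and -1.53 with DMSO (4 members), and those above 64 FPKM at -1.61 (3 members) and -0.34 (2 members). At 1 to 2 FPKM the sign differed, with 1.38 for 1 member with AZD0095 and -0.48 for 2 members with DMSO. Since the list keeps only genes above 1 FPKM in every library, a gene of low RNA level had to have enough footprints to enter it. A footprint value under 2 FPKM in at least 1 library was seen in 5 members (8.93%) and in 1.82% of other genes.

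**Figure D5:**
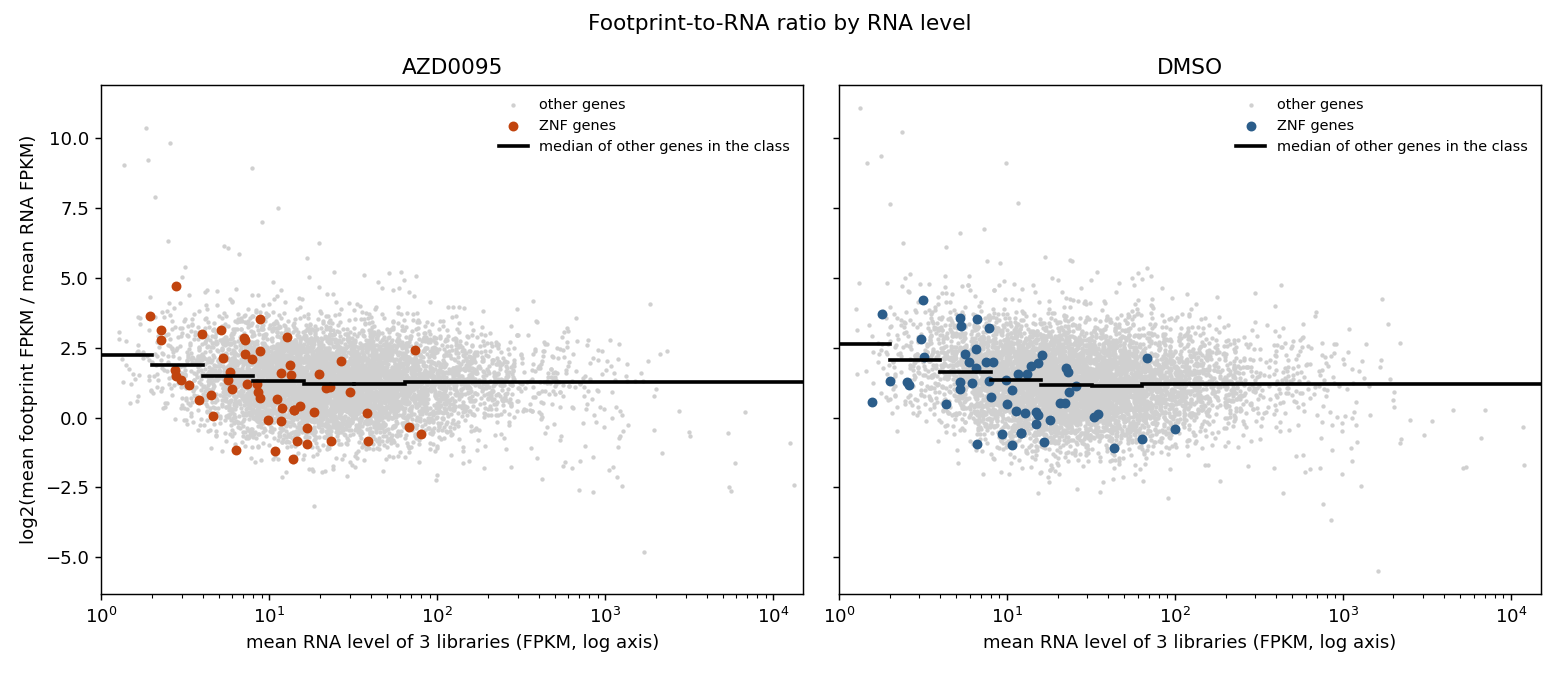
Log2 of mean footprint FPKM over mean RNA FPKM against mean RNA FPKM (log axis) with AZD0095 (left) and DMSO (right), for ZNF genes (colour) and other genes (grey), with black bars at the median of other genes in each doubling class. The class medians of other genes rise toward low RNA levels, to 2.25 with AZD0095 and 2.63 with DMSO at 1 to 2 FPKM, and the members spread over both sides of them.

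The lowest ratios relative to like genes with DMSO belonged to ZNF318, ZNF592, ZNF639 and ZNF850. ZNF318, a large nuclear protein that in mouse B cells governs transcription through the IgD exons, was at -3.15, -2.54 and -2.09 in the AZD0095 libraries and at -1.89, -2.29 and -3.48 in the DMSO libraries. ZNF592 was at -2.84, -1.78 and -2.98 with AZD0095 and at -1.95, -1.92 and -3.15 with DMSO. Both lay far below their class median in every library. With DMSO only 1.02% of the other genes in its class lay below ZNF318 and 2.10% below ZNF592. ZNF639 was at -1.34, -2.01 and -3.21 with AZD0095 and at -2.18, -1.82 and -2.54 with DMSO. ZNF850 was less constant, at 1.78, 1.23 and -1.17 with AZD0095 and at -1.77, -1.83 and -1.84 with DMSO. Its footprints were 26.7, 17.0 and 2.49 FPKM with AZD0095 and 2.52, 2.91 and 1.62 FPKM with DMSO, and AZD0095 replicate 3, the deepest of the footprint libraries, lay with the DMSO libraries. The reads of ZNF850 were not inferred. At the median length of genes with inferred reads, 3 reads made 23.2, 26.8 and 14.9 FPKM in DMSO replicates 1, 2 and 3. Whether its low and close DMSO values sit at a floor of few reads was not tested.

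The highest ratios relative to like genes with DMSO belonged to ZNF567, ZNF830, ZNF707 and ZNF226. ZNF226 was at 1.83, 1.49 and 0.70 with AZD0095 and at 1.49, 2.48 and 0.81 with DMSO, above its class median in all 6 libraries. ZNF567 was at 4.10, 2.51 and -0.69 with AZD0095 and at 1.89, 3.10 and 1.46 with DMSO. It was thus above the median in 5 of 6 libraries and below it in AZD0095 replicate 3. ZNF707 was at 2.15, -0.07 and 1.04 with AZD0095 and at 1.38, 2.82 and 1.22 with DMSO. ZNF830 was at 1.63, 1.69 and 0.28 with AZD0095 and at 0.00, 2.79 and 2.17 with DMSO, a spread as wide as its distance from the median.

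Abundant members lay on both sides. ZNF706 was above its class median in every library, at 0.21, 1.68 and 1.2 with AZD0095 and at 0.92, 1.22 and 0.64 with DMSO. ZNF207 was below it in every library, at -2.38, -1.51 and -1.78 with AZD0095 and at -1.78, -1.07 and -2.23 with DMSO. ZNF185 was also below in every library, at -2.0, -1.40 and -1.42 with AZD0095 and at -1.47, -2.0 and -2.14 with DMSO. These are the 3 members with the highest RNA levels, and each had footprints of at least 30.4 FPKM in every library.

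By role, from the ratio of mean values, the median difference from like genes was 0.27 with AZD0095 and 0.21 with DMSO for the 11 members that handle RNA or ribosomes. It was -0.72 with AZD0095 and -1.13 with DMSO for the 4 partners of chromatin complexes, and -0.97 and -0.91 in those treatments for the 7 other factors with known roles. For the 34 members on none of these lists it was -0.50 with AZD0095 and -0.62 with DMSO. The 14 members on chromosome 19 stood at 0.42 with AZD0095 and 0.00 with DMSO, against -0.39 and -0.51 for the 42 elsewhere. Their median RNA level was 6.16 FPKM with AZD0095 and 6.23 FPKM with DMSO, against 11.3 and 11.5 FPKM elsewhere. The part of RNA level in this difference was not tested. All 56 stood at -0.33 with AZD0095 and -0.39 with DMSO, and all genes tested at 0.00 in both. The 17 genes of other zinc finger families stood at -0.60 with AZD0095 and -0.77 with DMSO, below their like genes as the ZNF genes were, and the 12 corepressor genes at 0.23 and 0.40. These groups are small and share libraries, and no test was made between them.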

How the data were processed

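RNA-seq and ribosome profiling of MDA-MB-231 cells gave 3 libraries per treatment and assay. The authors deposited FPKM values, fragments scaled to gene length and mapped reads. The submitters' processing notes name STAR, Bowtie2, fastp and the build hg38. What each tool did, which counter was used and how FPKM was computed: not given in the sources used here. Per the labels' protocols, footprint lysates were freed of nuclei and mitochondria and treated with RNase I. The labels call the RNA both total and polyadenylated.

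Each table held 6785 genes; 8 repeated entries were removed, leaving 6777. Values were tested as log2(FPKM + 1), a scale that understates changes of low genes, by two-sided limma 3.58.1 (R 4.3.3) with a variance trend, over the 6 RNA or 6 footprint libraries, or all 12 for the ratio, with Benjamini-Hochberg adjustment over all genes and calls at adjusted p under 0.05. The fit was tested on simulated data. Doubling classes of mean RNA FPKM (edges 1, 2, 4, 8, 16, 32 and 64) gave the genes of like RNA level. Footprint reads were inferred from steps in the deposited FPKM values and cover 1050 genes; the shortest length giving whole reads was taken, so reads may be too few. PCR copies in them are not independent molecules. RNA depth is unknown.

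The members, lists and motifs were chosen with earlier results of these data known. Named genes are those called in RNA, those with non-overlapping groups and the largest changes (up to 5 per direction), the 4 highest and lowest in RNA level and in relative ratio with DMSO, and the role lists. A planned split by KRAB domain was not run because protein sequences were not used here. Promoters were the 200 bases before the start furthest upstream in the RefSeq promoter table, which for some genes lies inside the annotated gene.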

Additional observations from a re-analysis of the deposited data

How the results depend on the processing

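As reported, 1 ZNF gene was called higher and 3 lower in RNA. A pseudocount of 0.1 and a filter of 5 FPKM gave the same counts, and median centring, quantile normalization and no variance trend gave 2 lower. With replicates 2 and 3 only, 2 were called higher and 10 lower, beside 9.68% and 10.9% of all genes. With replicate 1 as a term, 3 were called higher and 6 lower, beside 12.9% and 11.6%. Leaving out each library in turn gave 0 to 1 higher and 0 to 10 lower. There were 10 lower without AZD0095 replicate 1 and 0 lower without any other library, and the cause was not tested. The share of all genes called is not given here for a library left out, or for centring, normalization and variance trend. Those counts are therefore not shown to be particular to ZNF genes. The members' median RNA fold change relative to like genes was -0.06 and ranged from -0.079 to -0.040 when each library was left out. For footprints and for the ratio change, 0 members were called under every alternative run. The lower ratio of members relative to like genes kept its direction in both treatments under each alternative of pseudocount, class, filter and library left out, and moved by less than 1 SD between libraries.

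With the replicate number as a block, 2 members (3.57%) were called higher and 6 (10.7%) lower in RNA, beside 12.6% and 11.3% of all genes, and 0 in footprints or the ratio. The numbers were not taken to pair the samples, because deviations of same-numbered RNA libraries correlated at 0.62, 0.09 and 0.49 for replicates 1, 2 and 3. AZD0095 replicate 2 correlated best with DMSO replicate 3 (0.30), and footprint libraries of like number correlated at -0.02 to 0.09.

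Few reads per gene limit the footprint values, and a list floor of 1 FPKM limits which low genes are seen.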
